A study of Drosophila melanogaster with 2 samples.

Results

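Of the 6075 CG8388-GFP peaks that the authors kept in fly embryos after an irreproducible discovery rate (IDR) cutoff, 240 had their summit inside an annotated exon and more than 500 bp from the transcription start sites (TSSs) of all protein-coding genes. These exonic peaks made up 3.95% of the list (Wilson 95% interval 3.49 to 4.47). Of the 240 summits, 38 lay in a 5' UTR, 80 in a 3' UTR, 14 in a coding exon and 108 in an exon of a noncoding gene, called other exon here. The choice used the summit position and the gene models alone, with transposable elements left out, and no signal value beyond the authors' threshold. Intervals throughout cover counting error only.

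The data are ChIP-seq peak lists from whole Drosophila melanogaster embryos 0 to 14 h old, males and females pooled, of a stable transgenic line whose CG8388 product carries GFP at its C-terminus. Chromatin was sonicated and precipitated with an anti-GFP antibody, so the peaks report the tagged protein in a mixture of all embryonic cell types. There is a single group of 2 libraries, replicates 2 and 3, whose lists hold 30000 peaks each, as does a list from both libraries together (the pooled list). No untagged or mock library was analysed here, peak lists carry no read totals, and the depth is unknown.

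Exons hold the sequence that remains in the spliced RNA, and untranslated regions flank its coding stretch. A ChIP peak in an exon is a position on DNA: it says nothing by itself of binding to RNA, and an exon of a long gene can lie far from the promoter or beside the start of another transcript. Long noncoding RNA (lncRNA) genes are often short, single-exon units placed between or inside protein-coding genes, and their starts are not among the TSSs that the selection avoided. CTCF is a zinc finger protein that binds a GC-rich sequence in insects and vertebrates, and in flies it is known as an insulator protein.

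Exonic summits ranged from GC-rich to A/T-rich sequence. Some held the core of the CTCF consensus, written AGNNGGCGC, where N is any base. The core was searched on both strands within 50 bp of the summit. It was present in 13 of 240 exonic windows (5.42%, 3.19 to 9.05), against 1.19% of all thresholded windows, which is 72 of 6075. The following 30-base stretches, from 6 of the 13 summits, show the core in capitals. They were picked to cover 3 subclasses, after the values were seen. Each is written 5' to 3' on the strand that carries the core, from RefSeq's copy of the Release 6 genome with dm6 coordinates.
para 3' UTR (chrX:16458746-16458775, minus strand): aaagagagcgAGATGGCGCtccgcactgct
Hr4 3' UTR (chrX:2005999-2006028, minus strand): ctctaaatacAGGTGGCGCcactgaggaat
Rbp9 3' UTR (chr2L:2967072-2967101, minus strand): agccgcctaaAGAGGGCGCtctgcagacgt
Pde1c coding exon (chr2L:11816557-11816586, minus strand): cggagccggcAGATGGCGCtgcggcctaag
HisRS coding exon (chrX:18517606-18517635, minus strand): gtccgccgccAGAGGGCGCcgtctggaacg
lncRNA:CR43334 exon (chr3L:631992-632021, plus strand): ttaggcgcacAGTTGGCGCaattaaggcgc

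Other exonic summits sat in A/T-rich sequence. The next 3 stretches, shown for that contrast, are the 30 bases around the summit on the plus strand of dm6, with the longest unbroken run of A and T in capitals. They come from peaks among the 8 of highest signal in the 3' UTR or other exon subclass, picked after the values were seen, and GC content within 50 bp of these summits was 18.8% in CG5984 and 27.7% in each of the others.
CG5984 3' UTR (chr3R:27246439-27246468, plus strand): cattagcTAAAATATATTTTTAATggtaaa
lncRNA:Vinr exon (chrX:12751306-12751335, plus strand): ttttgAAATATAAATTTTgatatatgccaa
lncRNA:CR43334 exon (chr3L:634841-634870, plus strand): caaatcttcgaagatgAAATTTTTTTcaaa

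Exons were sparsely represented among the thresholded peaks. All exonic bases beyond the promoter windows held 8.61 thresholded summits per Mb, against 45.4 over the 6 arms (X, 2L, 2R, 3L, 3R and 4), 45.6 in introns and 30.9 in intergenic sequence. The subclasses differed widely. Other exons held 50.5 summits per Mb and 5' UTRs 35.8, whereas 3' UTRs held 11.6 and coding exons 0.788. Coding exons covered 13.3% of the bases but held 14 of the 6075 summits. Taking instead the 6075 highest peaks of each replicate, they held 28 in replicate 2 and 11 in replicate 3.

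The share of pooled peaks that passed the threshold followed the same order. Of 2070 exonic summits in the pooled list, 240 passed the authors' threshold, or 11.6% (10.3 to 13.0), against 20.2% of all pooled peaks. For comparison, 29.1% of promoter summits, 18.6% of intron summits and 16.1% of intergenic summits passed. The passing share was 16.8% in other exons (108 of 641, 14.2 to 19.9), 14.0% in 5' UTRs (38 of 272, 10.4 to 18.6) and 13.5% in 3' UTRs (80 of 591, 11 to 16.5). In coding exons 14 of 566 summits passed, or 2.47% (1.48 to 4.11). The coding exon interval did not overlap those of the other subclasses, which overlapped each other. Exonic summits were 7.65% of the 23925 pooled peaks that did not pass.

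Peak signal, the authors' own value with no stated scale, served to order peaks inside each list. The median was 238 in 5' UTRs (range 136 to 900), 220 in 3' UTRs (136 to 2223), 184 in coding exons (135 to 656) and 241 in other exons (136 to 2345). Over all thresholded peaks the median was 240 and the range 134 to 27855. The medians of 3 subclasses thus lay close to that of the whole list. The coding exon median was lower, but its interval of 141 to 457 includes that of the whole list, and 4 of the 14 peaks lay above it. The first 3037 ranks held 112 of the 240 exonic peaks, or 46.7%, against 50% of all peaks by construction. They took in 17 of 38 in 5' UTRs, 37 of 80 in 3' UTRs, 4 of 14 in coding exons and 54 of 108 in other exons. The first 1000 ranks held 41 exonic peaks (17.1%), against 16.5% of all thresholded peaks. Of these 41, 26 were in other exons, or 24.1% of that subclass (17.0 to 32.9), against 22.5% of promoter peaks.

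**Figure D1:**
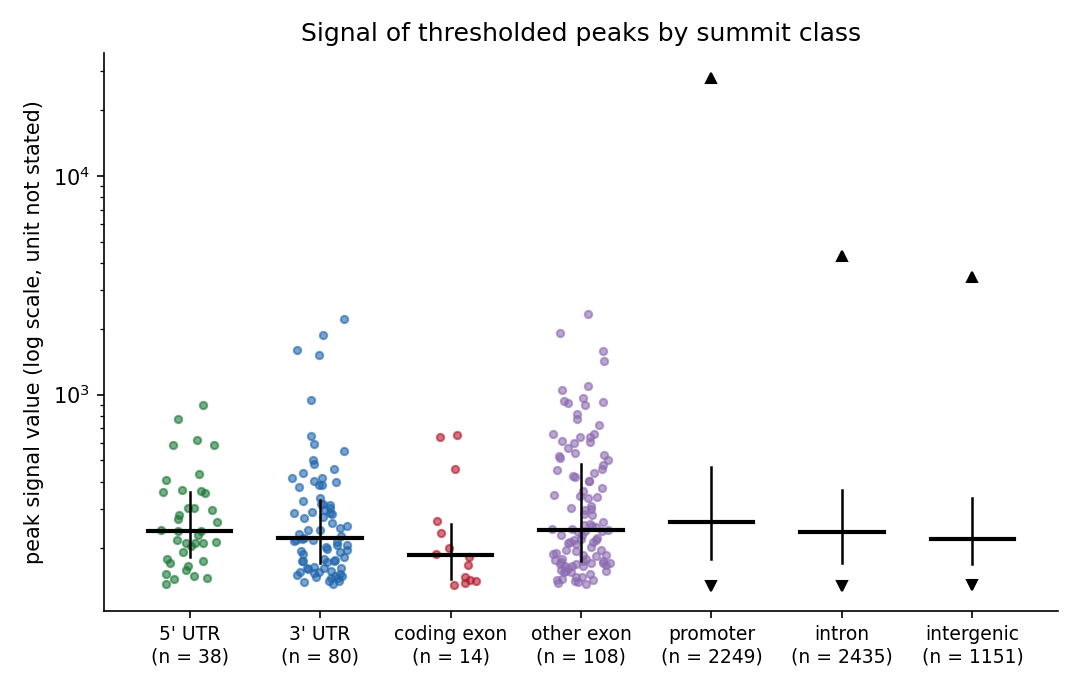
Signal value of each exonic peak by subclass on a log scale, 1 point per peak, with the median (horizontal bar) and quartiles (vertical bar); promoter, intron and intergenic peaks are given by median, quartiles, highest and lowest value (triangles). The 4 exonic medians lie between 184 and 241, and the highest exonic value is 2345 against 27855 in promoters.

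The replicates shared most exonic peaks. A peak counted as found in both where it overlapped, by at least 1 bp, a peak among the 6075 highest of each replicate list. This held for 172 of 240 exonic peaks (71.7%, 65.7 to 77.0), against 73.9% of all thresholded peaks. The share was 78.7% in other exons (85 of 108, 70.1 to 85.4), 71.1% in 5' UTRs (27 of 38, 55.2 to 83.0), 66.3% in 3' UTRs (53 of 80, 55.4 to 75.7) and 50% in coding exons (7 of 14, 26.8 to 73.2). All of these intervals include 73.9% except that of coding exons, whose upper bound is 73.2%. The thresholded list was itself made from these libraries, so these shares are no independent check.

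Coding exon peaks were less even between the replicates than the others. Of the 14, 6 stood among the leading peaks of replicate 2 only (42.9%, 21.4 to 67.4), against 13.2% of all thresholded peaks. Among those of replicate 3 only stood 1 (7.14%, 1.27 to 31.5), against 11.9%. The median rank of the 14 was 3326.5 in replicate 2 and 5819.5 in replicate 3. Positions were close. Exonic summits lay a median of 13 bp from the matching summit of replicate 2 and 15 bp from that of replicate 3. Over all thresholded peaks these medians were 14 and 16 bp. Both replicate summits fell in the same class as the thresholded summit for 208 of 240 exonic peaks (86.7%, 81.8 to 90.4), against 95.5% of all thresholded peaks. Peaks with no match count as changed here, and among exonic peaks 3 had none in replicate 2 and 6 none in replicate 3. Replicate peaks were also shared between neighbours: 9 exonic peaks had a replicate peak in common with another thresholded peak, 6 of them in both replicates. This was counted for exonic peaks alone, so it gives no comparison with the whole list.

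**Figure D2:**
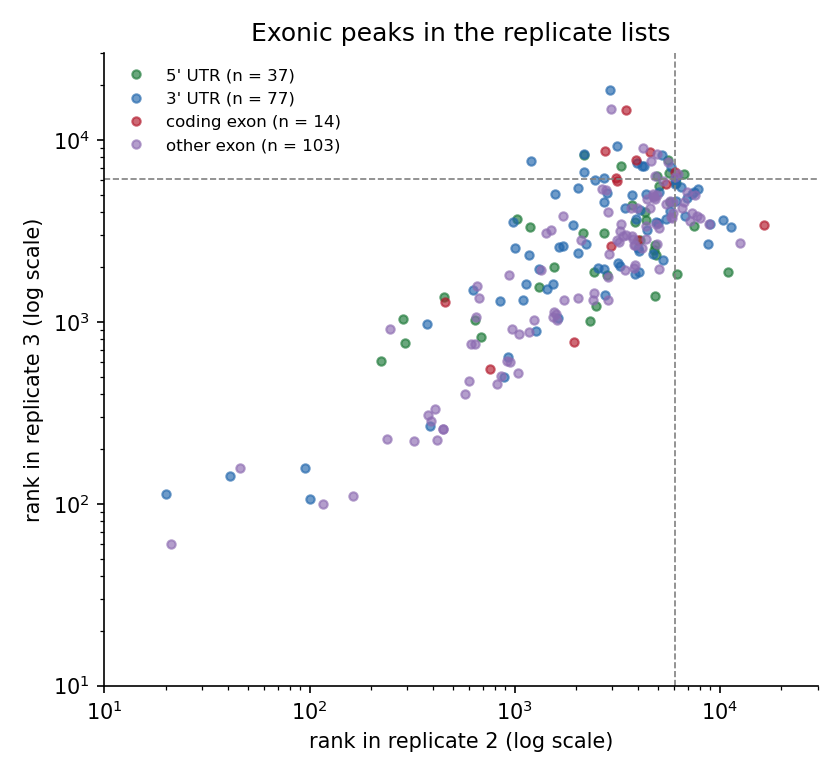
Rank of each exonic peak in the list of replicate 2 (x axis) and replicate 3 (y axis), both on log scales with rank 1 as the highest signal, for the 231 peaks that overlap a peak of both lists; dashed lines mark rank 6075. Most points lie near the diagonal. Coding exon peaks are less even between the replicates, and 6 of the 14 lie above the horizontal line.

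The 38 peaks in 5' UTRs lay mostly near the start of their own host gene, beyond the 500 bp limit. Their median distance to the nearest protein-coding TSS was 803 bp, 26 of 38 were within 1000 bp of one (68.4%, 52.5 to 80.9), and for 35 that TSS belonged to the host gene. Lower-ranked 5' UTR summits had a median of 913 bp and 53.8% within 1000 bp, a share inside that interval. The median distance to the start codon along the genome was 1310 bp. The exon belonged to 1 of several transcripts of the gene in 17 of 38 (44.7%, 30.1 to 60.3), against 34.6% of lower-ranked pooled summits in 5' UTRs.

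The 5' UTR peak of highest signal was in trx, which encodes the Trithorax histone H3 lysine methyltransferase. Its peak spanned 3R from 14279330 to 14279789, had a signal of 900 and ranked 346 in the thresholded list, 223 in replicate 2 and 612 in replicate 3. The summit was 7367 bp from the nearest TSS, its own, in an exon of 2 of 5 transcripts. In replicate 3 the matching summit fell in an intron, so the exonic placement of this peak rests on replicate 2.

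The peak of ptc, the Hedgehog receptor gene, spanned 2R from 8650084 to 8650516. It ranked 465 with a signal of 772, and 285 and 1041 in replicates 2 and 3. Raf, the kinase that acts below Ras, had its summit 851 bp from its TSS on X and ranked 688, with replicate ranks of 451 and 1375. Each of these 3 peaks stood higher in replicate 2 than in replicate 3. Over all 38 peaks in 5' UTRs the order was reversed, with median ranks of 3687 in replicate 2 and 2804 in replicate 3.

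The other leading genes were Fbl6 (rank 757), vap (761), dos (1311), cic (1441) and E2f1 (1669). Of these, vap encodes a Ras GTPase-activating protein, dos an adaptor of receptor tyrosine kinases and cic an HMG-box repressor that acts below the same receptors. E2f1 encodes a cell cycle transcription factor, and its summit, 5966 bp from the nearest protein-coding TSS, lay in an exon of all 6 transcripts. The summit of Fbl6, an F-box protein gene, was 508 bp from its TSS, and the replicate 2 summit fell within the promoter window. In vap the summit was 5 bp from the exon edge, and the replicate 3 summit fell in an intron.

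The 80 peaks in 3' UTRs lay toward the ends of transcripts. The median distance was 392 bp to the transcript end and 758 bp past the stop codon, and 45 of 80 summits (56.3%, 45.3 to 66.6) were within 500 bp of the end. The lower-ranked pooled summits in 3' UTRs were alike, with 54.4% within 500 bp. The nearest protein-coding TSS belonged to the host gene for 32 of 80. It was within 1000 bp for 13 and more than 5000 bp away for 17. X carried 27 of the 80 (33.8%, 24.3 to 44.6), against 22.7% of 3' UTR bases, 30.7% of lower-ranked 3' UTR summits and 18% of all thresholded peaks.

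A gene for a neuronal ion channel held the highest 3' UTR peak. The para gene encodes the voltage-gated sodium channel. Its peak spanned X from 16458456 to 16459022, had a signal of 2223 and ranked 44 in the thresholded list, 20 in replicate 2 and 113 in replicate 3. The summit was 5036 bp past the stop codon and 9603 bp from the nearest protein-coding TSS, that of eIF4H1. The exon belongs to 1 of 60 annotated transcripts. The centre of the CTCF core shown above lay 6 bp from this summit.

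Next in the 3' UTR subclass came mtd and pxb, both on 3R. The mtd gene encodes a TLDc-domain protein related to human OXR1. Its peak spanned 5270794 to 5271393, with a signal of 1871 and rank 71, and it ranked 41 and 142 in replicates 2 and 3. The summit lay in an exon of 3 of 23 transcripts. The peak of pxb spanned 15688427 to 15688869 with a signal of 1607, and its ranks of 97, 101 and 106 in the thresholded list and in replicates 2 and 3 were nearly equal.

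The remaining named 3' UTR peaks were in CG30432 (rank 122), Cals (310), CG5984 (636), scf (734) and CG12769 (851). Cals encodes a calsyntenin, a transmembrane protein with cadherin repeats, and its peak spanned chromosome 4 from 1113138 to 1113475. In CG5984 the summit was 51 bp from the transcript end with a GC content of 18.8% within 50 bp, and in scf, a gene for a calcium-binding protein, it was 38 bp from the end at 19.8%. The flanks of these summits, windows of the same length centred 400 bp to each side, had 35.6% and 40.1% GC.

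All 14 coding exon peaks can be named. They were Pde1c (rank 620), CG12974 (662), otp (1195), l(3)mbn (2708), scrib (3172), Nup188 (3824), mxt (4117), gpp (4278), alc (4761), eloF (5508), HisRS (5740), CG8565 (5777), TBC1D16 (5899) and DCP2 (6049). Their genes have diverse known roles. Among them are a cyclic nucleotide phosphodiesterase (Pde1c), a homeodomain factor (otp), the polarity scaffold scribble (scrib), a nuclear pore subunit (Nup188), a histone H3 lysine methyltransferase (gpp) and a subunit of AMP-activated kinase (alc). Others are a fatty acid elongase (eloF), a histidyl-tRNA synthetase (HisRS) and an mRNA decapping enzyme (DCP2).

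The coding exon belonged to every transcript of its gene in 10 of 14 (71.4%, 45.4 to 88.3), against 80.8% of lower-ranked coding summits, and 3 of the 14 genes have a single transcript. The median distance to an exon edge was 127.5 bp. In Pde1c the peak spanned 2L from 11816403 to 11816746 with a signal of 656, and its ranks were 761 and 550 in replicates 2 and 3. In eloF the rank was 3491 in replicate 2 and 14502 in replicate 3, and in DCP2 it was 16386 and 3393. The first gene was thus well placed in both replicates, and the last pair in 1 replicate each. The signal of DCP2, 135, was the lowest of all exonic peaks. Of the 14 peaks, 9 had a width of 400 bp with a central summit (64.3%, 38.8 to 83.7), against 34.1% of all thresholded peaks.

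The 108 other exon peaks belonged to 99 lncRNA, 5 antisense RNA, 2 microRNA precursor and 2 small nuclear RNA positions. The nearest TSS of a protein-coding gene was a median of 4579 bp away, and more than 5000 bp away for 50. With starts of all annotated genes counted, 47 of 108 (43.5%, 34.6 to 52.9) were within 500 bp of one, against 50.3% of lower-ranked other exon summits. The transcript's own start was within 500 bp for 40 (37.0%) and its end for 51 (47.2%). Lower-ranked other exon summits had 45.0% and 50.3%. Single-exon transcripts held 66 of the 108 (61.1%), against 59.1% of the lower-ranked. A protein-coding gene contained 28 of the 108 summits, and 23 had a gene on the opposite strand. No RNA data were analysed here, so the host gene is a label of position.

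The leading other exon peak was in lncRNA:CR45128 on 2R, from 6662850 to 6663827, with a signal of 2345. It ranked 37 in the thresholded list, 21 in replicate 2 and 60 in replicate 3. The summit was 36 bp from the end of the transcript, which overlaps Adf1 on the opposite strand, and the replicate 2 summit fell in an intron. Adf1 encodes a MADF-domain transcription factor. The next of the named peaks were in lncRNA:Vinr (68), lncRNA:CR44619 (107), lncRNA:CR46035 (139), lncRNA:CR44810 (231), lncRNA:CR31840 (249), lncRNA:CR43334 (297) and lncRNA:CR44363 (319). The peak in lncRNA:CR46035 lies opposite osa, which encodes a subunit of a Brahma chromatin remodelling complex.

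A few genes held several of the exonic summits. In all, 240 summits fell in 219 genes, and 15 genes with at least 2 summits accounted for 36. The most were in lncRNA:CR43334 (FBgn0286827), an unspliced gene of 15466 bp on 3L from 628435 to 643900 on the plus strand. It contains mir-ban, the gene of the bantam microRNA, which is known for promoting tissue growth and cell survival, at 642208 to 642288.

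Exonic summits were spread along the whole bantam host gene. Its 7 summits lay 1822, 3577, 5309, 6421, 8243, 12335 and 14231 bp from the annotated gene start, and no other thresholded summit fell in the gene. The highest, at 6421 bp, had a signal of 968 and ranked 419 in replicate 2 and 225 in replicate 3. The last was 378 bp past the end of mir-ban and had a signal of 404. Thresholded ranks ran from 297 to 4552. The stretch with the CTCF core shown above belongs to the summit at 3577 bp, and the A/T-rich stretch to the summit at 6421 bp. GC content within 50 bp of the summit ran from 22.8% to 51.5% across the 7, and was below that of the flanks at 6.

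**Figure D3:**
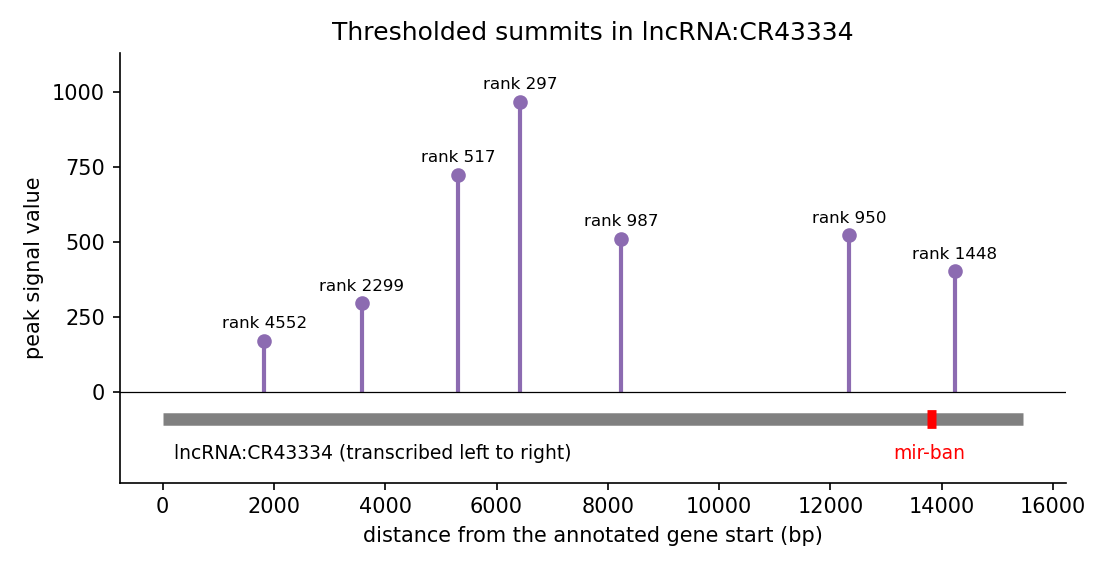
Thresholded summits in lncRNA:CR43334 by distance from the annotated gene start (x axis, bp) and peak signal (y axis, authors' scale), with the gene as a grey bar and mir-ban in red. The 7 summits span 12409 bp, and the highest, of rank 297, has a signal of 968.

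Protein phosphatase gene Pp1alpha-96A came next, with 3 summits in its 3' UTR within 515 bp (ranks 1394, 2118 and 3678). These are not 3 separate replicate peaks: the first and the last matched the same peak of replicate 2, of rank 1131, and the last had no match in replicate 3. Fas3, a homophilic adhesion gene, had 2 3' UTR summits 581 bp apart. The homeodomain gene pros had 2 that were 4245 bp apart. In eas, an ethanolamine kinase gene, 1 summit lay in a 5' UTR and 1 in a 3' UTR. Both summits of the heat shock lncRNA gene lncRNA:Hsromega (ranks 2437 and 3095) were in the first stretch of the gene, 1087 and 154 bp from a transcript start.

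The other genes with 2 summits were lncRNA:CR44619, lncRNA:CR44380, lncRNA:CR43650, lncRNA:CR44603, CAP, CG42258, Atg17, asRNA:CR45270 and asRNA:CR44018. Both summits of lncRNA:CR44380, 202 bp apart, matched the same peak in each replicate, of rank 446 in replicate 2 and 259 in replicate 3. A cluster on X, picked out after the values were seen, joined both summits of lncRNA:CR44619 (ranks 107 and 657) with that of lncRNA:Vinr (68) and 1 in the 3' UTR of CG4004 (1546). These 4 summits, from 12748386 to 12754522, were all of the thresholded summits in that interval of 6136 bp. The first lies in a protein-coding gene and the other 3 in exons of lncRNA genes.

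Base composition differed between the subclasses, and other exons were close to the list as a whole. GC content within 50 bp of the summit was 31.6% ± 9.34 (SD, n = 6075) over all thresholded peaks, against 43.8% in their flanks. It was 33.1% ± 10.6 (n = 108) in other exons, with flanks at 44.3%. In 3' UTRs it was 35.0% ± 9.67 (n = 80), with flanks at 38.7%. In 5' UTRs it was 39.3% ± 11.6 (n = 38), with flanks at 39.5%. Coding exons had 49.9% ± 9.79 (n = 14) at the summit and 38.9% in the flanks. On average the summit was thus lower in GC than its flanks in other exons, by less in 3' UTRs, about level with them in 5' UTRs, and higher than them in coding exons. All bases of these classes beyond the promoter windows had 43.1%, 37.6%, 45.7% and 53.4% GC, in the same order. Each summit mean lay below the value of its own class, in coding exons too.

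Counts of summits gave the same picture of summit and flanks. GC content was below that of the flanks at 156 of 240 exonic summits (65%, 58.8 to 70.8), against 83.1% of all thresholded summits. The share was 80.6% in other exons (87 of 108, 72.1 to 86.9), 58.8% in 3' UTRs (47 of 80, 47.8 to 68.9), 50% in 5' UTRs (19 of 38, 34.8 to 65.2) and 21.4% in coding exons (3 of 14, 7.57 to 47.6). Among lower-ranked pooled summits of the same subclasses the share was 42.8% in other exons, 54.4% in 3' UTRs, 42.7% in 5' UTRs and 17.6% in coding exons. The share in other exons lay above that of its lower-ranked peaks, and the intervals of the remaining subclasses include theirs. Mean GC content of lower-ranked summits was 42.8%, 38.0%, 44.0% and 54.0% in the same order.

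**Figure D4:**
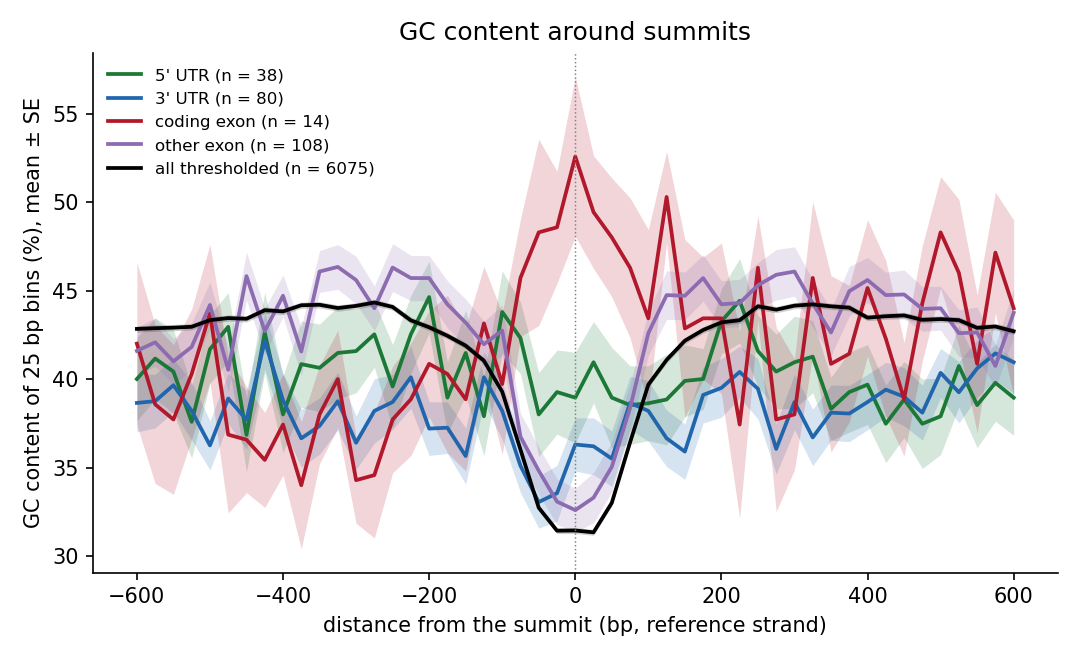
Mean GC content in bins of 25 bp (y axis, %) by distance from the summit (x axis, bp, along the reference strand) for each exonic subclass and for all thresholded peaks, with the SE over peaks shaded. At the summit bin the mean is 52.6% in coding exons, 38.9% in 5' UTRs, 36.3% in 3' UTRs and 32.6% in other exons, against 31.4% over all peaks.

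The CTCF core was found in every exonic subclass. It lay within 50 bp of 3 of 14 coding exon summits (21.4%, 7.57 to 47.6), 5 of 80 in 3' UTRs (6.25%), 2 of 38 in 5' UTRs and 3 of 108 in other exons (2.78%). Among the other thresholded peaks the share was 1.16% in promoters (26 of 2249), 0.903% in introns (22 of 2435) and 0.956% in intergenic sequence (11 of 1151). Lower-ranked exonic summits had it at 34 of 1830 (1.86%), and windows 400 bp from the exonic summits at 0.417%. The interval for all exonic summits together, 3.19 to 9.05%, thus lay above the share in each of these sets. By subclass this held in 3' UTRs (2.70 to 13.8%) and coding exons. The 5' UTR interval, 1.46 to 17.3%, included the share of lower-ranked exonic summits. The other exon interval, 0.949 to 7.85%, included the shares of promoters, intergenic sequence and lower-ranked exonic summits. A core match is a run of letters and not a measured CTCF site.

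Base composition and the core went together. Among exonic summits whose GC content was not below that of their flanks, 12 of 84 had the core (14.3%), against 1 of 156 of the rest (0.641%). Over all thresholded summits the same split gave 54 of 1029 (5.25%) and 18 of 5046 (0.357%). The core itself adds G and C to the window, so these measures are not independent. Among exonic peaks found in both replicates 11 of 172 had it (6.40%, 3.61 to 11.1). The interval overlaps that of the rest, of which 2 of 68 had the core (2.94%, 0.81 to 10.1). In the lists of single replicates, the leading exonic summits had it at 11 of 254 in replicate 2 (4.33%, against 1.05% of that list's 6075 leading summits) and at 13 of 237 in replicate 3 (5.49%, against 1.40%).

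The 13 exonic peaks with the core, named as a set after the values were seen, included strong and weak ones. Ranks ran from 44 to 6006. In 3' UTRs they were para, Hr4, mei-P26, CG9166 and Rbp9, of which Hr4 encodes a nuclear receptor, mei-P26 a TRIM-NHL protein and Rbp9 an ELAV-family RNA-binding protein. In coding exons they were Pde1c, otp and HisRS, and in 5' UTRs Mef2, a muscle transcription factor gene, and CG43110. In other exons they were lncRNA:CR44331, lncRNA:CR43334 and lncRNA:CR43838. The core was centred within 10 bp of the summit at 6 of them: para, Pde1c, lncRNA:CR43334, Hr4, mei-P26 and Rbp9. The Rbp9 and CG9166 peaks were not among the leading peaks of both replicates, with ranks of 5259 and 8203 for Rbp9 and 9013 and 3428 for CG9166 in replicates 2 and 3.

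**Figure D5:**
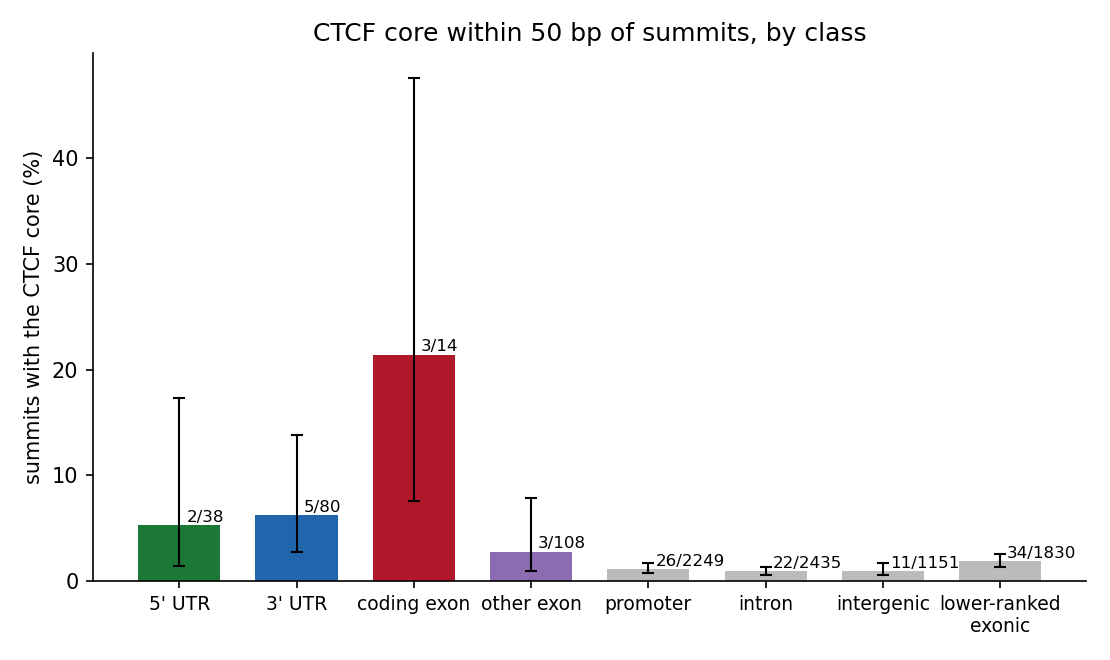
Share of summits with the CTCF core within 50 bp (y axis, %) in each exonic subclass (coloured bars) and in other thresholded and lower-ranked exonic summits (grey bars), with Wilson 95% intervals and counts. The coding exon share of 21.4% rests on 3 of 14 summits and has the widest interval, 7.57 to 47.6%.

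Another 10 motifs were searched within 50 bp on both strands. AATAAA, the letters of the common polyadenylation signal, was at 78 of 240 exonic summits (32.5%, 26.9 to 38.7), against 34.4% of all thresholded windows and 20.8% of the exonic flanks. TGCATA was at 24 (10% against 9.25%), CATATG at 13 (5.42% against 4.02%) and CAGCTG at 9 (3.75% against 2.77%). The run TTTTTTTT was at 14 (5.83% against 8.05%). GAGAGAG was at 4 (1.67%, 0.65 to 4.21, against 0.905%), and within 100 bp its share was 6.67% against 3.01%. For 2 motifs the interval excluded the share in all thresholded windows. ATTTAAAA was lower, at 7 (2.92%, 1.42 to 5.90, against 7%), and within 100 bp at 4.17% against 12%. It was at 1.875% of exonic flanks and 1.69% of lower-ranked exonic summits, both inside that interval. CAGGTAG was higher, but at 4 summits in all (1.67%, 0.65 to 4.21, against 0.477%), and within 100 bp at 2.08% against 0.823%. Exonic flanks had CAGGTAG at 0.833%, inside its interval, and lower-ranked exonic summits at 0.601%, just below it. TATCGATA and GGTCACAC were at 0, with 0.938% and 0.593% in all windows.

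Exonic summits fell in 126 of 13945 protein-coding genes (0.904%) and 97 of 4219 other annotated genes (2.3%), with each gene of an overlapping pair counted. At such shares 0 or 1 gene in a list of about 20 says nothing particular of the list. Of 18 matched genes of segment polarity and Hedgehog or Wnt signalling 1 had a summit (ptc), and of 19 neural development genes 1 (pros). None of the 8 Hox genes, 18 gap and pair-rule genes, 16 Notch pathway genes or 20 BMP, EGF and FGF pathway genes had one. Genes of ecdysone response and nuclear receptors had 3 of 14 (Hr4, EcR and Hr3). Genes of cell adhesion, cytoskeleton and axon guidance had 4 of 23 (NetB, scrib, baz and chic). RNA-binding and translational control genes had 2 of 20 (fne and Rbp9), and chromatin and insulator genes 2 of 21 (trx and Su(z)2). Of all thresholded summits 3.95% were exonic. In the lists without an exonic summit, gene bodies held 16, 2, 19 and 44 thresholded summits of any class. Bodies of the ecdysone, adhesion, RNA-binding and chromatin lists held 45, 57, 46 and 35, of which 3, 4, 2 and 2 were exonic. Those of the segment polarity and neural lists held 44 and 14, of which 1 and 2 were exonic. EcR encodes the ecdysone receptor, NetB a netrin, baz the Par-3 polarity protein, chic profilin and fne an ELAV-family protein.

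Among RNA gene classes the exonic summits were mostly in lncRNA genes. They fell in 92 of 2663 such genes, with 104 summits counting antisense RNA genes, out of 285 thresholded summits in the bodies of these genes. None of 290 tRNA genes, 269 snoRNA genes, 99 rRNA genes and 268 pseudogenes had one, nor had any of 88 ribosomal protein genes, and these zeros are to be read against the low shares over all genes given above. The small nuclear RNA genes with a summit were snRNA:7SKa (rank 4595) and snRNA:U5:63BC (5867), which encode the 7SK regulator of transcription elongation and a spliceosomal RNA. Replicates disagreed on both. The 7SKa peak ranked 12511 in replicate 2 and 2714 in replicate 3, and the U5 peak had no match in replicate 2 and ranked 4083 in replicate 3. The 7SKa summit had the highest GC content of the exonic set, 72.3%. The microRNA precursors were mir-4974 (4209), inside CG8671, and mir-4962 (4818), inside Tlk.

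The limits of the selection fell between neighbouring peaks as follows. Just beyond 500 bp from a protein-coding TSS were CG8924, at 507 bp with a signal of 190, and Fbl6, at 508 bp with 589. Just within it was a summit in an exon shared by CG4456 and Hsp22, at 496 bp with 325. In all, 434 thresholded summits were exonic but lay within the 500 bp window and so were counted as promoter summits. At the authors' threshold, ogre (136) and DCP2 (135) were the last exonic peaks that passed, and COX7AL2 and lncRNA:CR44498 (133 each) the first that did not.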

How the data were processed

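Peak lists in narrowPeak format on dm6 were deposited for replicates 2 and 3, for both libraries pooled and for peaks past the authors' IDR threshold, and a control alignment was used in peak calling, per the file headers and accompanying notes. The aligner, the caller and the IDR cutoff were not given in the sources used here. Each peak's signal is a score deposited by the authors, on an unstated scale, and served to rank peaks. The −log10 q-values were inspected as deposited and not used further. The labels call the libraries biological replicates, and nothing further is given on their embryo collections.

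Exons were taken from Ensembl release 115. Sequence came from RefSeq's copy of Release 6, which is dm6. Coordinates are 1-based. Summits were placed in the order promoter (500 bp), 5' UTR, 3' UTR, coding exon and other exon. Lower-ranked summits are pooled peaks that did not pass the threshold. Shares have Wilson 95% intervals. With 1 group there is no test between conditions, and sets of regions were described by counts and medians beside all thresholded peaks.

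Named genes are those of all coding exon peaks, the 8 of highest signal in each other subclass, genes with at least 2 summits, those nearest the 500 bp limit and members of 18 gene lists. A gene that the rule takes near that limit is not reported here. Peaks named for the CTCF core and the X cluster were added after their values were seen, as were the peaks at the signal threshold and the contrasts within named peaks. The selection, the lists and the 11 motifs were chosen with earlier results of these data known. Python 3.11.15, pandas 2.3.3, numpy 2.4.6, scipy 1.17.1 and matplotlib 3.10.9 were used, and the placement and motif search were tested on simulated data. Alternatives changed the promoter window, the TSS set, the gene models, the overlap rule, the sequence window, the flanks and the choice of replicate. After the data were seen, 3 were added: peaks found in both replicates, peaks with the same class in both, and counting neighbouring peaks of a gene within 5 kb once.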

Additional observations from a re-analysis of the deposited data

How the results depend on the processing

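With a promoter window of 250 bp there were 70 peaks in 5' UTRs, with 1000 bp 12, and with the TSSs of all annotated genes 61 in other exons. The first 3037 ranks held 17, 37, 4 and 54 peaks in 5' UTRs, 3' UTRs, coding exons and other exons, or 112 in all. Leading peaks of single replicates gave 11 to 28 coding exon summits. Peaks found in both replicates numbered 53 in 3' UTRs and 7 in coding exons. Median ranks in single replicates ran from 2804 to 3687 in 5' UTRs and from 3326.5 to 5819.5 in coding exons. Against whole replicate lists the shared fraction was 97.4%, 96.3%, 100% and 95.4% in the same order and 96.3% in all, and with 50% of the peak overlapped it was 65% in all. Median GC content in other exons was 34.8% within 100 bp, against 30.2% within 50 bp. Motifs per exonic summit minus motifs per thresholded summit came to -0.00397, to -0.0638 within 100 bp, and to 0.213 against flanks. Of the alternatives run, 97 values stayed and 27 did not stay within their interval or within 1.5 times the count, and none changed sign except that motif difference. No paired analysis was possible because the libraries form 1 group. The unknown depth and the 2 libraries limit all shares, and the coding exon values rest on 14 peaks.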
